A study of Mus musculus with 42 samples.

Results

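The TET dioxygenases and the DNA glycosylases of base excision demethylation were followed through the late steps of reprogramming of mouse fibroblasts to induced pluripotent stem cells (iPSC). The 9 members are Tet1, Tet2, Tet3, Tdg, Smug1, Mbd4, Neil1, Neil2 and Neil3. They were taken by gene name from the 48321 names in each of 2 RNA-seq count tables, and all 9 passed the filter on low counts in both tables.

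Methylated cytosine can be removed from DNA without replication. TET enzymes oxidise methylcytosine in steps to hydroxymethyl-, formyl- and carboxylcytosine, a glycosylase cuts out the oxidised base, and the gap is filled with an unmodified cytosine. In embryonic stem cells Tet1 and Tet2 are the TET genes in use, while Tet3 is known for the oocyte, the zygote and differentiated cells.

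The study holds 42 libraries in 14 groups of 3, and each table holds 21 libraries. The nx2 groups carried a Tet1-mCherry transgene and a Pou5f1-EGFP transgene, from the strain B6; 129S4-Tg(Tet1-mCherry)B37Koh crossed with the strain B6;CBA-Tg(Pou5f1-EGFP)2Mnn/J. They were mCherry+ GFP- cells at day 10, mCherry+ GFP+ and mCherry+ GFP- cells at days 12 and 14, and iPSC, set against the unsorted embryonic fibroblasts (MEF) of the same strain, all in the first table. The tx2 groups, from B6- Tet1tm1.1Koh crossed with B6;129S4-Pou5f1tm2Jae/J, were mCherry+ GFP- cells at day 8 and mCherry+ GFP+ and mCherry+ GFP- cells at days 10 and 12. The second table also holds Tet1 knockout iPSC (mut/mut) and wild-type iPSC (wt/wt), both from B6- Tet1tm1Koh crossed with B6;CBA-Tg(Pou5f1-EGFP)2Mnn/J and with 1 Pou5f1-EGFP allele. In tx2, mCherry and GFP are each carried over a wild-type allele. By the strain names, both nx2 reporters are transgenes (Tg) and not targeted alleles of Tet1 and Pou5f1. All libraries are labelled male. Replicates were 3 lines in nx2 and in tx2. In the knockout and wild-type groups they were clones, all titled iPSC34, and the labels do not say that they came from separate animals, so their p-values measure the spread between clones. The iPSC were grown for 6 to 7 passages on feeder cells, which were then depleted. The title of tx2 day 12 GFP- replicate 2 carries no mCherry mark, and only its source name gives the gate.

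Totals ran between 9693737 and 20783265 counts per library in the first table and between 6540256 and 20225778 in the second. Levels are in CPM, read counts divided by the TMM-scaled library total, fold changes are log2 ± standard error from edgeR's quasi-likelihood test, and a gene was called at an adjusted p (Benjamini-Hochberg, over all genes tested in its table) under 0.05. The tables were scaled separately, so no test crosses them. The labelled cell types had their markers: the sum of 8 pluripotency genes was 3229 to 3530 CPM in nx2 iPSC and 1.77 to 2.82 CPM in MEF, and the sum of 10 fibroblast genes was 1294 to 3447 CPM in nx2 iPSC and 20880 to 21750 CPM in MEF. Of those fibroblast genes 8 of 10 fell in nx2 iPSC and 1 was higher. Replicate 1 of nx2 day 10 GFP- and replicate 1 of wild-type iPSC stood apart from the rest, with 8.99% and 12.2% of counts on mitochondrial genes. A fit without both lost 2 member calls, gained 13 and turned 1 value round.

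The promoter windows of the 3 TET genes are shown because these genes moved in opposite directions. Each is the 250 bases before the RefSeq start on GRCm38.p6, the same assembly as the mm10 of the counts, written 5′ to 3′ along the gene with CpG dinucleotides, the sites of methylation, in capitals.
Tet1, chr10:62887325-62887574, minus strand: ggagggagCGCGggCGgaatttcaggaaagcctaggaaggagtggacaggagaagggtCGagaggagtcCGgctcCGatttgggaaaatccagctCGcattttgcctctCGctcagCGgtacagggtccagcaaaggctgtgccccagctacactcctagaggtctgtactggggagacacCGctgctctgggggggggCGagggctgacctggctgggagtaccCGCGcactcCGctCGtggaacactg
Tet2, chr3:133544391-133544640, minus strand: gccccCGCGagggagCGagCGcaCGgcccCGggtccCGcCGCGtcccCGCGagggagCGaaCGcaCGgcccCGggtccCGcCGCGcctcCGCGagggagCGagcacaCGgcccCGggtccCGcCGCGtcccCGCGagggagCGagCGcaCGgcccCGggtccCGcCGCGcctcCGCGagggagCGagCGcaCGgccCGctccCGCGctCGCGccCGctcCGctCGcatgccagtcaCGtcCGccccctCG
Tet3, chr6:83441679-83441928, minus strand: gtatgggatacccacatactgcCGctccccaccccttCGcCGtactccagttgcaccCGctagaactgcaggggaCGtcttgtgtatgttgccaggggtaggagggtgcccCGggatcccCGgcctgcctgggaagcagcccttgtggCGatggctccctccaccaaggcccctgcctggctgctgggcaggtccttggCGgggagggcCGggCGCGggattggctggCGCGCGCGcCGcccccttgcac
The Tet1 window holds 15 CpG, the Tet2 window 51 and the Tet3 window 17, against a median of 6 over 32544 distinct RefSeq promoter windows of the same length. As many CpG as in the Tet2 window were found in 0.0676% of all windows, against 27.5% for Tet1 and 23.7% for Tet3. A run of 25 bases occurs 3 times in the Tet2 window. The letters GGGCGG, read on both strands, occur once in each of these windows and in 33% of all windows. The RefSeq start lies 11794 bases inside the deposited Tet1 gene span and 17406 bases inside that of Tet3, so these are not the most upstream starts of those genes. Of the 9 members 8 have an entry in the RefSeq table.

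Counting covered whole gene spans on mm10, introns included, on the minus strand for every member but Tdg. The spans were chr10:62804570-62899118 for Tet1, chr3:133463679-133545139 for Tet2 and chr6:83362373-83459084 for Tet3. Tdg, on the plus strand, spans chr10:82629828-82650799 and Neil2 spans chr14:63182443-63193541. On the same strand Tet1 overlaps Gm26479 and Tet3 overlaps Mir6374 and 5430434F05Rik, and reads shared with them were not counted.

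Tet3 and Tet1 traded places between fibroblasts and mCherry+ cells. Tet1 had 816, 684 and 764 CPM in nx2 day 10 GFP- cells, against 12.2, 9.68 and 9.16 CPM in MEF. Tet2 had 527, 370 and 438 CPM in nx2 day 10 GFP- cells and 30.7, 27.4 and 28 CPM in MEF. Tet3 had 15, 18.1 and 16.4 CPM in nx2 day 10 GFP- cells and 130, 120 and 131 CPM in MEF. Of all genes, 76.4% were called in this comparison. The log2 fold changes were 6.18 ± 0.17 for Tet1, 3.95 ± 0.12 for Tet2 and -2.94 ± 0.13 for Tet3 (adjusted p = 1.4e-17, 6.92e-17 and 1.56e-14). Without day 10 replicate 1 they were 6.14, 3.83 and -2.86. The sorted groups were gated on a Tet1-mCherry reporter and MEF were not sorted. Gate and stage thus cannot be told apart in the Tet1 comparison. Reads of the Tet1-mCherry transgene, if counted, cannot be told apart from those of Tet1. In bulk libraries such as these, fewer cells of a type and less RNA per cell cannot be told apart.

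**Figure D1:**
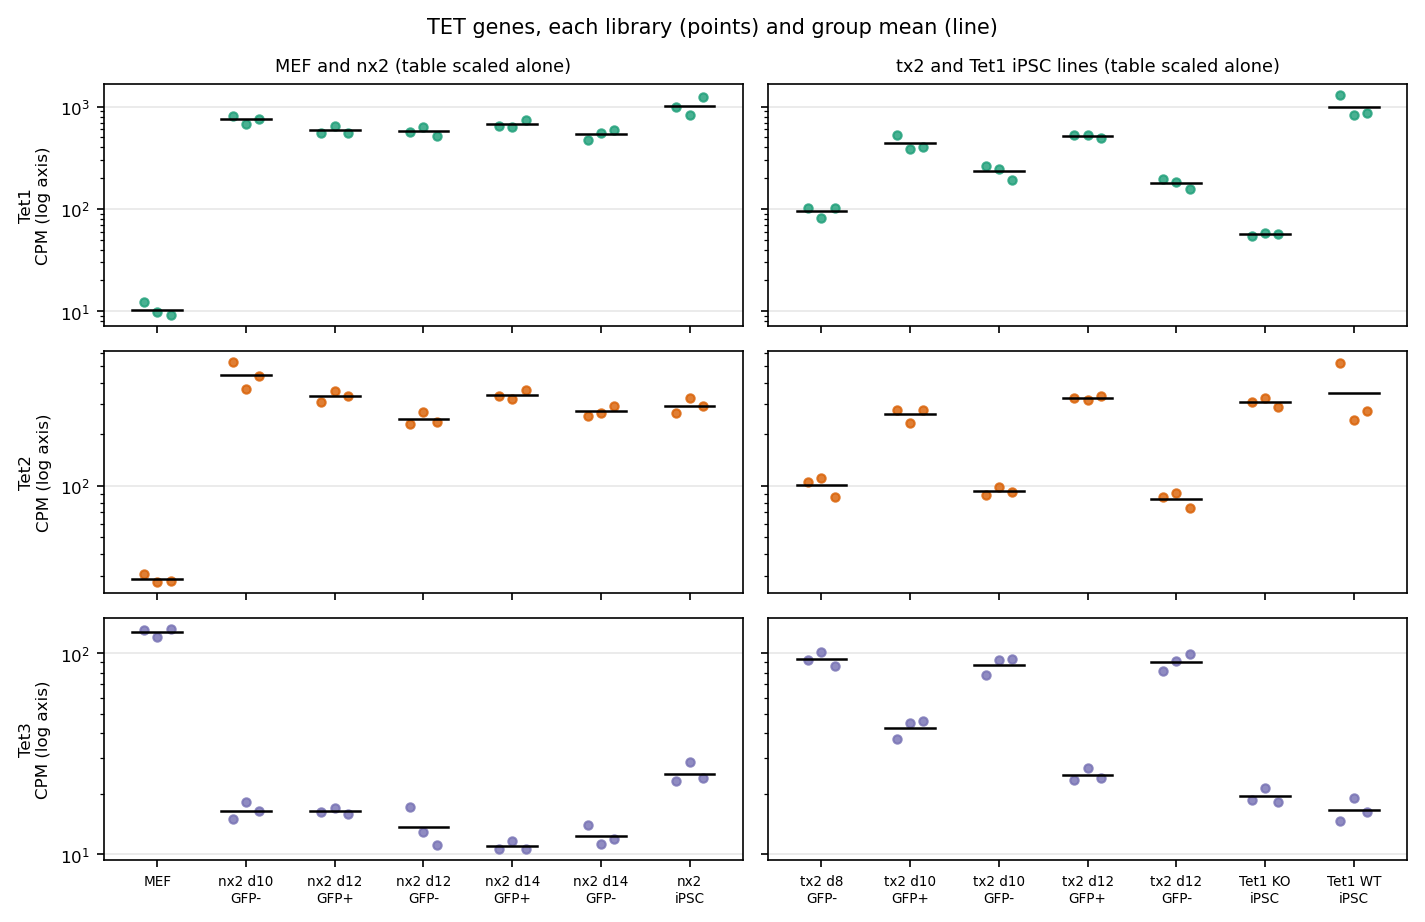
CPM of Tet1, Tet2 and Tet3 on a log axis in every library (points), with the mean of each group (line), for the table with MEF and nx2 (left) and the table with tx2 and the Tet1 iPSC clones (right). Tet1 and Tet2 were lowest in MEF within the left table, and Tet3 stayed near 90 CPM in tx2 GFP- cells, with means of 93.4, 87.8 and 90.4 CPM at days 8, 10 and 12.

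Per kilobase of exon the make-up of the TET transcripts changed with them. Exon lengths were taken from a later GENCODE release, and the counts include introns, so these are approximate. Of the summed CPM per kilobase of the TET genes, Tet3 took 1.32 ± 0.282% in nx2 day 10 GFP- cells and 76.3 ± 1.39% in MEF (SD, n = 3 each). Tet1 took 64.2 ± 1.87% in nx2 day 10 GFP- cells and 6.68 ± 0.844% in MEF. The sum itself was 76.2 ± 8.86 CPM per kilobase in nx2 day 10 GFP- cells and 9.99 ± 0.492 in MEF. In the day 10 libraries other than replicate 1 it was 67.2 and 76.3. Among all 9 members, Tet3 with 7.63 ± 0.369 and Tdg with 7.55 ± 0.538 CPM per kilobase led in MEF, while Tet1 led in nx2 iPSC with 66.3 ± 13.3.

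**Figure D2:**
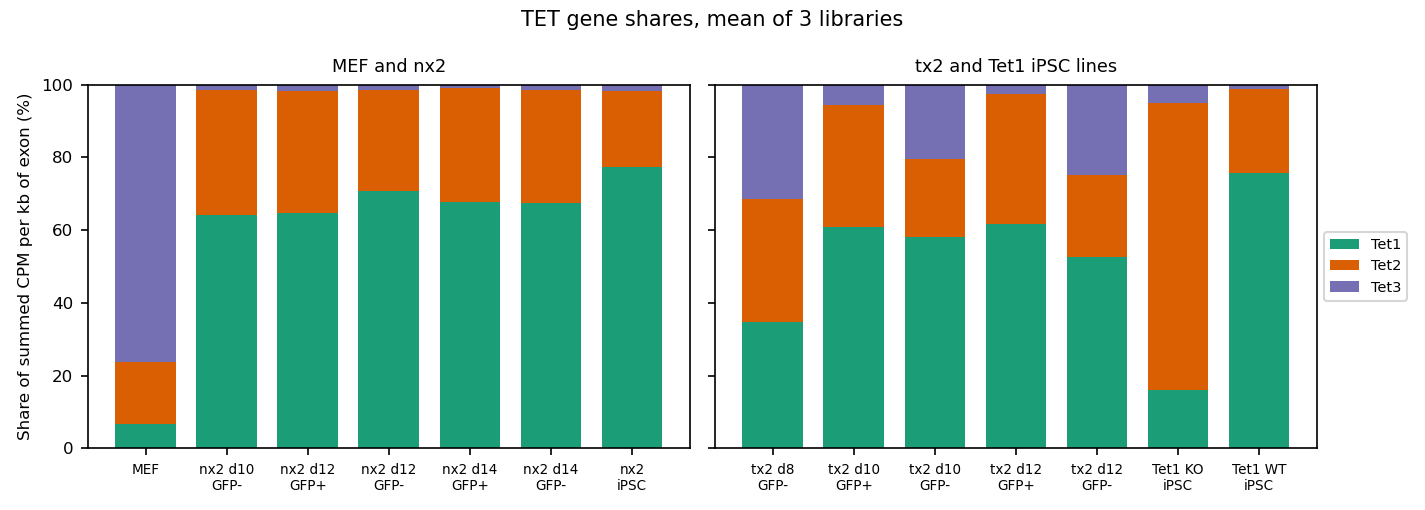
Mean share of Tet1, Tet2 and Tet3 in their summed CPM per kilobase of exon (percent, 3 libraries a group), for MEF and nx2 (left) and for tx2 and the Tet1 iPSC clones (right). The Tet3 share was 76.3% in MEF and 1.03 to 1.81% in the nx2 groups, and in tx2 it was 2.73% in day 12 GFP+ cells and 24.8% in day 12 GFP- cells.

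After day 10 in nx2, Tet2 fell in GFP- cells and Tet3 fell in GFP+ cells. In order of mean, Tet1 stood at 1025 ± 206 CPM in iPSC, 755 ± 66.6 in day 10 GFP-, 672 ± 55.3 in day 14 GFP+, 587 ± 56.4 in day 12 GFP+, 573 ± 62.8 in day 12 GFP- and 542 ± 60.7 in day 14 GFP- cells, and from day 10 down each group overlapped the next. Tet2 was highest at day 10, with 445 ± 79.1 CPM, and lowest among sorted cells in day 12 GFP- cells, with 246 ± 22.3 CPM. Tet2 fell in GFP- cells at day 12 relative to day 10 (-0.85 ± 0.11, adjusted p = 2.04e-05), and by 0.70 without day 10 replicate 1. The smaller fall of Tet1 in that comparison (-0.40 ± 0.13, adjusted p = 0.0343) was lost without day 10 replicate 1 or 3 or day 12 replicate 1 or 3, with an adjusted p of up to 0.175. It was -0.32 (adjusted p = 0.164) without day 10 replicate 1, the library of high mitochondrial share. Tet3 had 10.7, 11.6 and 10.6 CPM in day 14 GFP+ cells and 16.2, 17 and 15.9 CPM in day 12 GFP+ cells (-0.58 ± 0.14, adjusted p = 0.00289). Of all genes, 30.5% were called in that comparison.

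The GFP gate, which reports Pou5f1, separated all 3 TET genes in tx2. The tables hold the systems apart, so a difference between tx2 and nx2 was not tested. At day 12, tx2 Tet2 had 324, 318 and 334 CPM in GFP+ cells, against 86.2, 90.5 and 74.8 CPM in GFP- cells. Tet3 had 23.5, 26.8 and 23.9 CPM in tx2 day 12 GFP+ cells, against 81.5, 91.1 and 98.7 CPM in GFP- cells. The log2 fold changes were 1.96 ± 0.20 for Tet2, -1.87 ± 0.12 for Tet3 and 1.53 ± 0.16 for Tet1 (adjusted p = 1.04e-07, 1.73e-10 and 1.44e-07), where 61.6% of all genes were called. At day 10 the same gate gave 1.49 ± 0.20 for Tet2, -1.04 ± 0.11 for Tet3 and 0.91 ± 0.16 for Tet1 (adjusted p = 1.29e-05, 1.45e-06 and 0.00024), where 22.4% of all genes were called.

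Over time in tx2 GFP- cells, Tet1 was the TET gene that rose. Tet2 averaged 101, 93.6 and 83.8 CPM at days 8, 10 and 12, and Tet3 93.4, 87.8 and 90.4 CPM, and neither passed the test between neighbouring days (adjusted p of 0.586 to 0.827). Tet1 in GFP- cells rose at day 10 relative to day 8 (1.30 ± 0.16, adjusted p = 4.01e-05), with 264, 244 and 193 CPM at day 10 and 101, 82.3 and 102 CPM at day 8. Its later change, -0.39 ± 0.16 at day 12 relative to day 10, was not called (adjusted p = 0.0735) but was in the fit with line as a block (-0.38, adjusted p = 0.0309). In GFP+ cells Tet3 fell further at day 12 relative to day 10 (-0.79 ± 0.12, adjusted p = 0.000112). Cell type markers moved in both comparisons. In GFP- cells at day 10 relative to day 8, 9 of 10 fibroblast genes fell, with sums of 3011 to 8488 CPM at day 10 and 13530 to 21070 CPM at day 8, and 5 of 8 pluripotency genes rose. In GFP+ cells at day 12 relative to day 10, 9 of 10 fibroblast genes and 4 of 6 leukocyte genes fell and 6 of 8 pluripotency genes rose. The fibroblast sums there were 2207 to 2646 CPM at day 12 and 4399 to 11780 CPM at day 10, and the leukocyte sums were 132.6 to 175.2 CPM at day 12 and 187.6 to 201.7 CPM at day 10. The part of these markers in the Tet1 and Tet3 results was not tested.

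The GFP difference of Tet3 and Tet1 grew between days 10 and 12 in tx2. The difference of log2 fold changes, day 12 minus day 10, was -0.83 ± 0.16 for Tet3 (adjusted p = 0.00122) and 0.62 ± 0.22 for Tet1 (adjusted p = 0.0439), the only calls among the 9 members, where 27.3% of all genes were called, 10.5% higher and 16.7% lower. The Tet3 difference was called with each of the 12 libraries left out in turn. The Tet1 difference was lost in 9 of those 12, all but the leaving out of day 10 GFP+ replicate 1, day 10 GFP- replicate 3 and day 12 GFP- replicate 1, with an adjusted p of up to 0.139. Tdg, at 0.46 ± 0.18 (adjusted p = 0.064), was called with line as a block (0.48, adjusted p = 0.0375).

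Fibroblast genes fell with the gate at day 12. All 10 fell in tx2 day 12 GFP+ cells, with a sum of 2207 to 2646 CPM in GFP+ cells and 9292 to 12460 CPM in GFP- cells. At day 10 1 was higher and 1 lower, and the sums overlapped, at 4399 to 11780 CPM in GFP+ cells and 3011 to 8488 CPM in GFP- cells. Of 6 leukocyte genes 5 were higher and 1 was lower in day 10 GFP+ cells, while their sum was lower, at 187.6 to 201.7 CPM in GFP+ cells and 220.2 to 298.9 CPM in GFP- cells. At day 12, 2 were higher and 1 was lower, with sums of 132.6 to 175.2 CPM in GFP+ cells and 221.3 to 246.1 CPM in GFP- cells. Mean Tet3 was 42.7 CPM in GFP+ and 87.8 CPM in GFP- cells at day 10, and 24.8 and 90.4 CPM at day 12. All 8 pluripotency genes rose in GFP+ cells on both days, and the part of these marker lists in the GFP results was not tested.

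In nx2, Tet2 was higher in day 12 GFP+ cells. It had 310, 357 and 336 CPM in day 12 GFP+ cells and 230, 271 and 236 CPM in day 12 GFP- cells, a log2 fold change of 0.44 ± 0.11 (adjusted p = 0.00591), and it was the only member called there, where 16.6% of all genes were called. Tet1 (0.04 ± 0.13, adjusted p = 0.902) and Tet3 (0.27 ± 0.13, adjusted p = 0.192) were not called. At day 14 Tet2, Mbd4 and Neil2 were called, all higher in GFP+ cells, among 31.3% of all genes. The Tet2 call (0.32 ± 0.11, adjusted p = 0.0261) was lost without GFP+ replicate 3 or GFP- replicate 1 or 2, with an adjusted p of up to 0.112. The Mbd4 call (0.24 ± 0.09, adjusted p = 0.0361) was lost without any of the GFP+ libraries or GFP- replicate 1 or 2, and the Neil2 call (0.67 ± 0.23, adjusted p = 0.0332) without GFP+ replicate 2 or 3 or GFP- replicate 1 or 2, each with an adjusted p of up to 0.15. No member's GFP difference was called as changed between days 12 and 14 in nx2, where 1.54% of all genes were, 0.688% higher and 0.855% lower. At an unadjusted p under 0.05, 2 of the 9 passed there, and DESeq2 called none. Of 8 pluripotency genes 4 were higher in nx2 day 12 GFP+ cells, and no fibroblast gene was called. By the same gate at day 14, 7 of 8 were higher and 3 of 10 fibroblast genes were lower. The fibroblast sums at day 14 were 1642 to 2709 CPM in GFP+ cells and 3210 to 5279 CPM in GFP- cells. The part of these markers in the nx2 GFP results was not tested.

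In the established nx2 iPSC, Tet1 and Tet3 stood above the last sorted cells. Tet3 had 23.1, 28.6 and 23.8 CPM in nx2 iPSC and 10.7, 11.6 and 10.6 CPM in day 14 GFP+ cells, a log2 fold change of 1.2 ± 0.13 (adjusted p = 3.43e-07). Tet1 rose by 0.61 ± 0.13 (adjusted p = 0.000629) and Tet2 was not called (-0.21 ± 0.11, adjusted p = 0.112), but was without both libraries of high mitochondrial share (-0.22, adjusted p = 0.0371). Of the fibroblast genes 5 of 10 were higher in nx2 iPSC, with sums of 1294 to 3447 CPM in iPSC and 1642 to 2709 CPM in day 14 GFP+ cells that overlapped, and their part in the Tet3 result was not tested. In the second table, the wild-type iPSC, of another strain than tx2, had Tet3 lower than tx2 day 12 GFP+ cells (-0.56 ± 0.12, adjusted p = 0.000849) and Tet1 higher (0.95 ± 0.16, adjusted p = 5.93e-05). Without wild-type replicate 1 these were -0.47 for Tet3 and 0.73 for Tet1 (adjusted p = 0.00292 and 0.000242). The tx2 cells carried the mCherry reporter over a wild-type allele, and these iPSC were wt/wt for Tet1. Strain, Tet1 genotype and stage thus cannot be told apart in this comparison. Tet2 had 522, 243 and 274 CPM in wild-type iPSC and 324, 318 and 334 CPM in tx2 day 12 GFP+ cells. Its change was 0.09 ± 0.19 (adjusted p = 0.727) with all libraries and -0.32 (adjusted p = 0.0121) without wild-type replicate 1.

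Of the glycosylase genes, Neil2 had its own highest levels at day 12 in nx2 and lower ones on the days around it. Neil2 encodes a glycosylase that removes oxidised bases and can take over from Tdg at the abasic site. It had 0.645, 0.421 and 0.532 CPM in MEF, then 9.51, 14.1 and 16 CPM in nx2 GFP- cells at day 10, 38.9, 39.8 and 40.5 CPM at day 12 and 6.58, 8.65 and 9.83 CPM at day 14. The day 12 libraries lay above all others of the table, in GFP+ cells too, with 36.6, 38.0 and 36.2 CPM. In nx2 GFP- cells Neil2 rose at day 12 relative to day 10 (1.58 ± 0.22, adjusted p = 6.5e-05) and fell at day 14 relative to day 12 (-2.25 ± 0.23, adjusted p = 3.09e-07). In nx2 GFP+ cells it fell at day 14 relative to day 12 (-1.48 ± 0.22, adjusted p = 5.1e-05). Each of these calls was made with every library left out in turn. At day 14 relative to day 12, 9 of 10 fibroblast genes rose in GFP- cells, with sums of 3210 to 5279 CPM at day 14 and 904.4 to 1431 CPM at day 12. In GFP+ cells 7 of 10 rose, with sums of 1642 to 2709 CPM at day 14 and 564.3 to 1096 CPM at day 12. The part of these markers in the Neil2 falls was not tested.

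In tx2 Neil2 was highest at the last day sorted. It had 20.5, 17 and 20.2 CPM in day 12 GFP+ cells and 3.19, 4.01 and 3.99 CPM in day 8 GFP- cells, a log2 fold change of 2.37 ± 0.24 (adjusted p = 7.05e-08). In GFP- cells it rose at day 10 relative to day 8 (1.12 ± 0.24, adjusted p = 0.00284), where 9 of 10 fibroblast genes fell and 5 of 8 pluripotency genes rose. The rise at day 12 relative to day 10 in GFP- cells (0.74 ± 0.22, adjusted p = 0.0161) was lost without day 12 replicate 1 or day 10 replicate 2 or 3 (adjusted p up to 0.125). In GFP+ cells that rise (0.84 ± 0.22, adjusted p = 0.00902) was lost without day 10 replicate 2 or 3 (up to 0.0654). The difference between day 12 GFP+ and GFP- cells (0.50 ± 0.21, adjusted p = 0.0469) was lost without GFP+ replicate 1 or 3 or GFP- replicate 2 or 3 (up to 0.244). Wild-type iPSC, with 5.20, 8.15 and 6.67 CPM, were below tx2 day 12 GFP+ cells (-1.52 ± 0.22, adjusted p = 1.65e-05, and -1.37 without wild-type replicate 1).

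**Figure D3:**
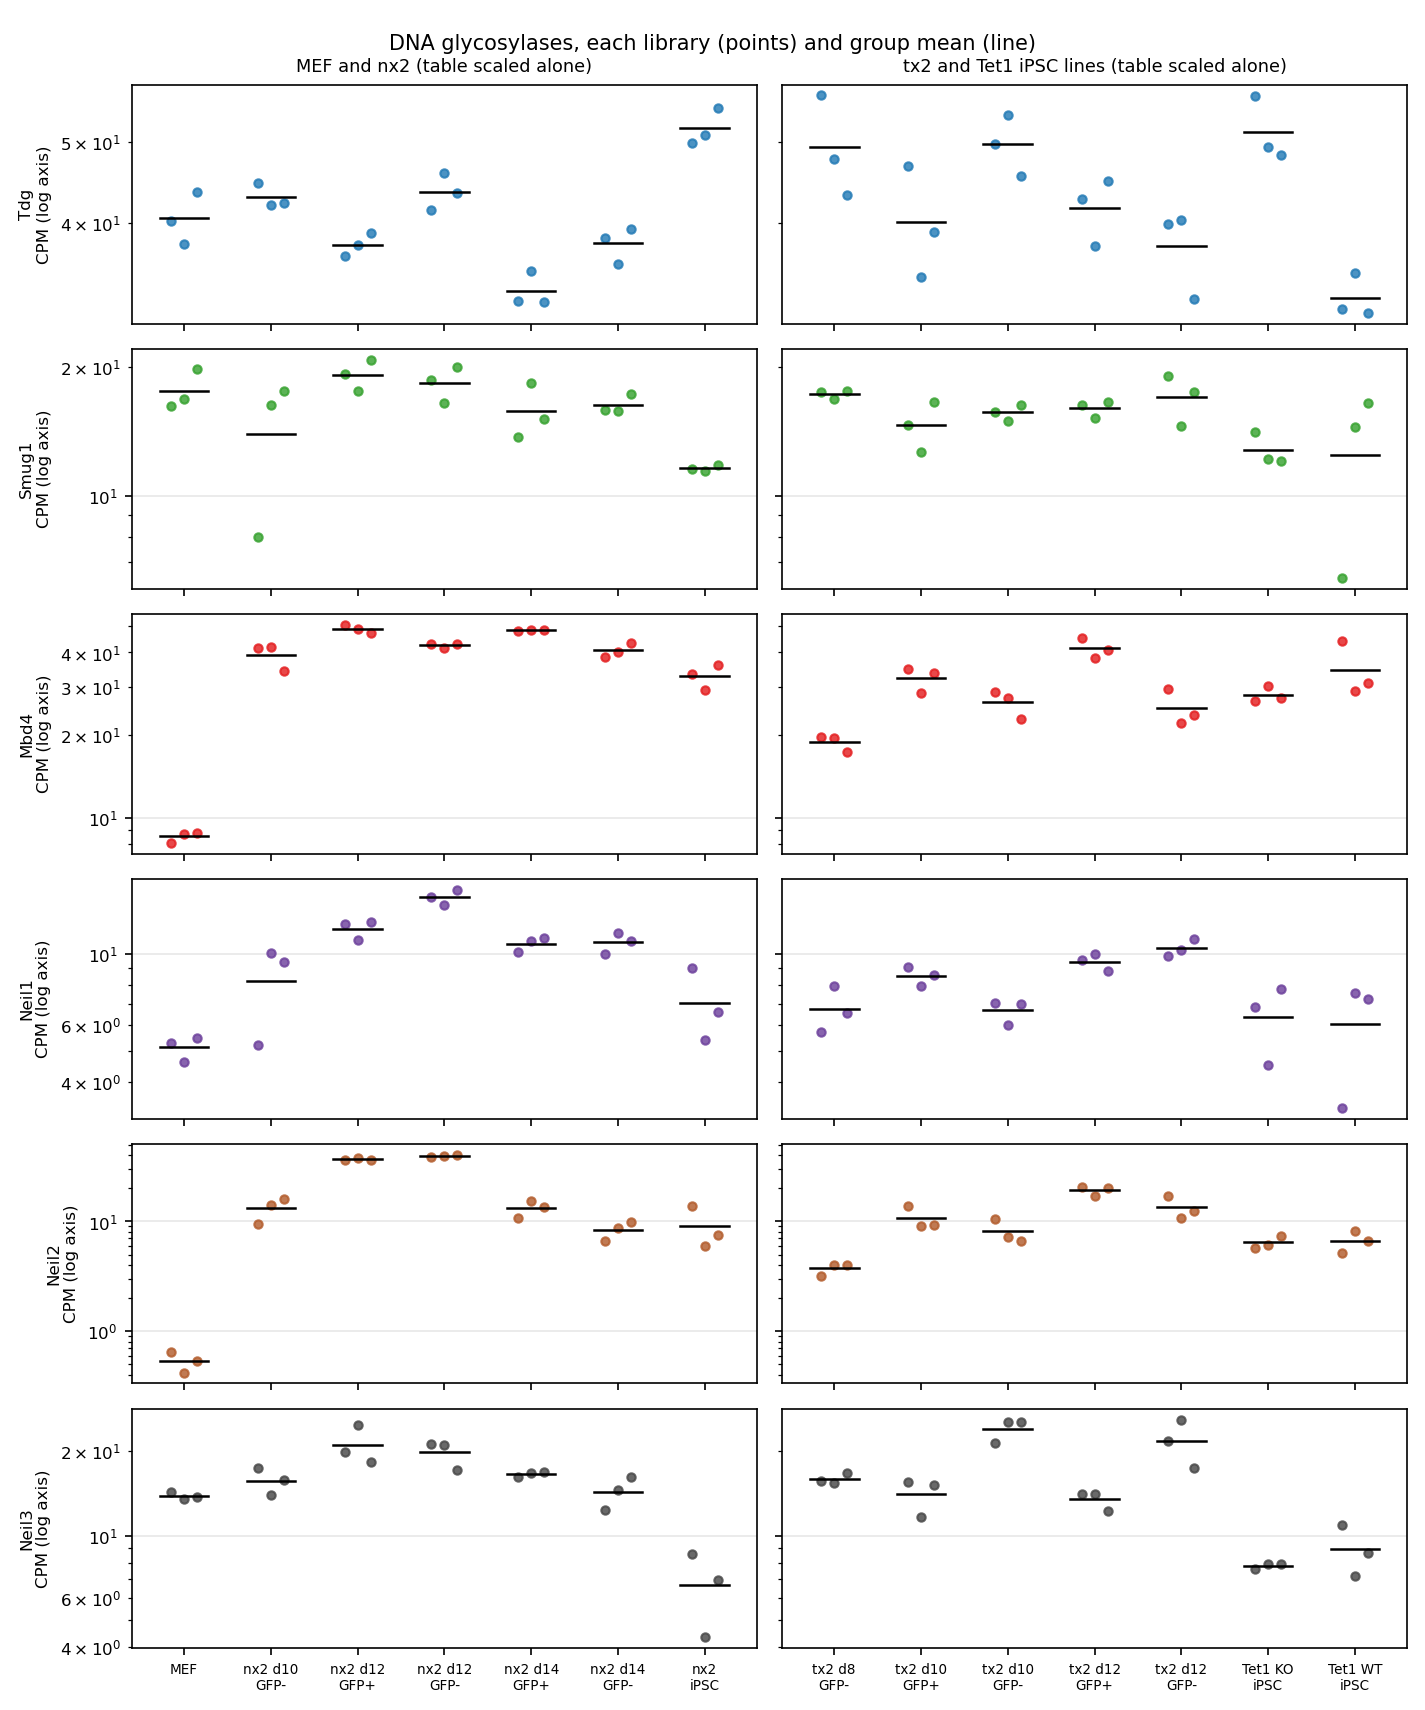
CPM of the 6 glycosylase genes on a log axis in every library (points), with the mean of each group (line), for MEF and nx2 (left) and tx2 and the Tet1 iPSC clones (right). Neil2 peaked in both nx2 day 12 groups, at means of 36.9 CPM in GFP+ and 39.7 CPM in GFP- cells, and Tdg stayed within 32.2 to 56.8 CPM in tx2 and nx2 sorted cells.

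Mbd4 encodes the glycosylase that removes thymine or uracil opposite guanine at CpG sites. It had 41.6, 42 and 34.3 CPM in nx2 day 10 GFP- cells and 8.10, 8.76 and 8.81 CPM in MEF, a log2 fold change of 2.20 ± 0.10 (adjusted p = 2.25e-14), or 2.18 without day 10 replicate 1. In nx2 iPSC, with 33.4, 29.3 and 36.0 CPM, it was below day 14 GFP+ cells, with 48.0, 48.2 and 48.5 CPM (-0.55 ± 0.09, adjusted p = 3.16e-05). In tx2 it had 45.1, 38.3 and 40.8 CPM in day 12 GFP+ cells and 29.5, 22.1 and 23.6 CPM in GFP- cells (0.72 ± 0.15, adjusted p = 0.000353). At day 10 the GFP difference was not called (0.29 ± 0.15, adjusted p = 0.177). In tx2 GFP- cells Mbd4 was called at day 10 relative to day 8 (0.48 ± 0.15, adjusted p = 0.0301), a call lost without day 10 replicate 1 or 2 or day 8 replicate 2 or 3 (adjusted p up to 0.124), beside the same fibroblast and pluripotency counts as for Neil2. In tx2 GFP+ cells it was not called at day 12 relative to day 10 (0.36 ± 0.15, adjusted p = 0.0824), but was with line as a block (0.36, adjusted p = 0.0448).

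Neil3, a glycosylase of dividing cells that acts on unpaired DNA and on crosslinks, was lower in GFP+ than in GFP- cells of tx2, and in iPSC. It had 15.5, 11.7 and 15.1 CPM in tx2 day 10 GFP+ cells and 21.4, 25.3 and 25.4 CPM in GFP- cells (-0.77 ± 0.16, adjusted p = 0.00128). At day 12 it had 14.0, 14.1 and 12.3 CPM in GFP+ cells and 21.7, 25.9 and 17.4 CPM in GFP- cells (-0.69 ± 0.16, adjusted p = 0.000877). Of 10 genes of dividing cells 9 were higher at day 12, with a sum of 3547 to 3780 CPM in GFP+ cells and 2428 to 2711 CPM in GFP- cells. Mki67 of that list had 725, 636 and 620 CPM in day 12 GFP+ cells and 786, 802 and 722 CPM in GFP- cells. At day 10, 1 of 10 was higher, and the sums overlapped, at 3178 to 3716 CPM in GFP+ and 3105 to 3532 CPM in GFP- cells. In nx2 iPSC 2 of 10 fell over day 14 GFP+ cells, and 8 of 10 rose over MEF. The part of these genes in the Neil3 results was not tested. In tx2 GFP- cells Neil3 rose at day 10 relative to day 8 (0.60), with 15.6, 15.4 and 16.7 CPM at day 8. That call was made with each library left out in turn (0.58 to 0.68, adjusted p up to 0.0402). Beside it 9 of 10 fibroblast genes fell, and 5 of 8 pluripotency genes and 3 of 10 genes of dividing cells rose. Neil3 was not called in tx2 day 12 GFP+ over day 8 GFP- cells (-0.25). In nx2 iPSC Neil3 had 8.63, 4.34 and 6.95 CPM, against 16.2, 16.7 and 16.9 CPM in day 14 GFP+ cells and 14.3, 13.5 and 13.7 CPM in MEF. The log2 fold changes were -1.33 ± 0.18 over day 14 GFP+ cells and -1.07 ± 0.18 over MEF (adjusted p = 5.51e-06 and 1.81e-05). A fall in nx2 GFP- cells at day 14 relative to day 12 (-0.46 ± 0.17, adjusted p = 0.0375) was lost without replicate 1 or 2 of either day, with an adjusted p of up to 0.155.

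Tdg, the glycosylase that cuts out formyl- and carboxylcytosine, changed little along the sorted stages. It was not called in nx2 day 10 GFP- cells over MEF on TMM-scaled totals (0.08 ± 0.07, adjusted p = 0.323), but was on library totals alone (0.36, adjusted p = 0.000129), which raised the median of all genes by 0.28. In nx2 iPSC it had 49.9, 50.9 and 54.9 CPM, against 32.3, 35.1 and 32.2 CPM in day 14 GFP+ cells and 40.3, 37.8 and 43.6 CPM in MEF. It rose by 0.64 ± 0.08 over day 14 GFP+ cells and by 0.35 ± 0.07 over MEF (adjusted p = 8.91e-07 and 0.00021). In the second table wild-type iPSC were below tx2 day 12 GFP+ cells (-0.36 ± 0.13, adjusted p = 0.0247), a call lost without tx2 replicate 1 or 3 or wild-type replicate 3 (adjusted p up to 0.123). Small falls in GFP- cells, at day 14 relative to day 12 in nx2 (-0.20 ± 0.07, adjusted p = 0.0372) and at day 12 relative to day 10 in tx2 (-0.40 ± 0.13, adjusted p = 0.023), were lost without nx2 day 14 replicate 1 or 2 or day 12 replicate 2 or 3, and without tx2 day 10 replicate 1 or 2 or day 12 replicate 3. The highest adjusted p was 0.123 in nx2 and 0.143 in tx2.

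Smug1, a glycosylase for uracil and hydroxymethyluracil, was called in 1 of the 16 comparisons of groups. Group means ran between 11.6 and 19.2 CPM in the first table and between 12.5 and 17.3 CPM in the second. The call was nx2 iPSC over MEF, with 11.5, 11.4 and 11.8 CPM in iPSC and 16.2, 16.8 and 19.8 CPM in MEF (-0.61 ± 0.19, adjusted p = 0.00605), and it was lost on library totals alone (-0.31, adjusted p = 0.159). Over day 14 GFP+ cells nx2 iPSC were not called (-0.45 ± 0.19, adjusted p = 0.0591), but were with line as a block (-0.45, adjusted p = 0.0432). Neil1, which removes oxidised pyrimidines, was highest in nx2 day 12 GFP- cells, with 14.9, 14.1 and 15.7 CPM, against 5.22, 10.0 and 9.40 CPM at day 10 (0.85 ± 0.19, adjusted p = 0.00337) and 5.28, 4.63 and 5.50 CPM in MEF. Day 10 replicate 1 is the library of high mitochondrial share. With each library left out in turn, that one included, the rise over day 10 was 0.64 to 1.03 (adjusted p up to 0.0158), but it was lost with only these groups in the fit (0.0557). Neil1 was lower in nx2 iPSC than in day 14 GFP+ cells (-0.62 ± 0.19, adjusted p = 0.0126), a call lost without iPSC replicate 2 (-0.47, adjusted p = 0.0679). In tx2 GFP- cells its rise at day 12 relative to day 10 (0.63 ± 0.23, adjusted p = 0.0451) was lost without any of the 6 libraries (up to 0.148). Its fall in wild-type iPSC relative to tx2 day 12 GFP+ cells (-0.60 ± 0.23, adjusted p = 0.0374) was lost without wild-type replicate 1 (-0.33, adjusted p = 0.167) or any of the tx2 libraries.

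**Figure D4:**
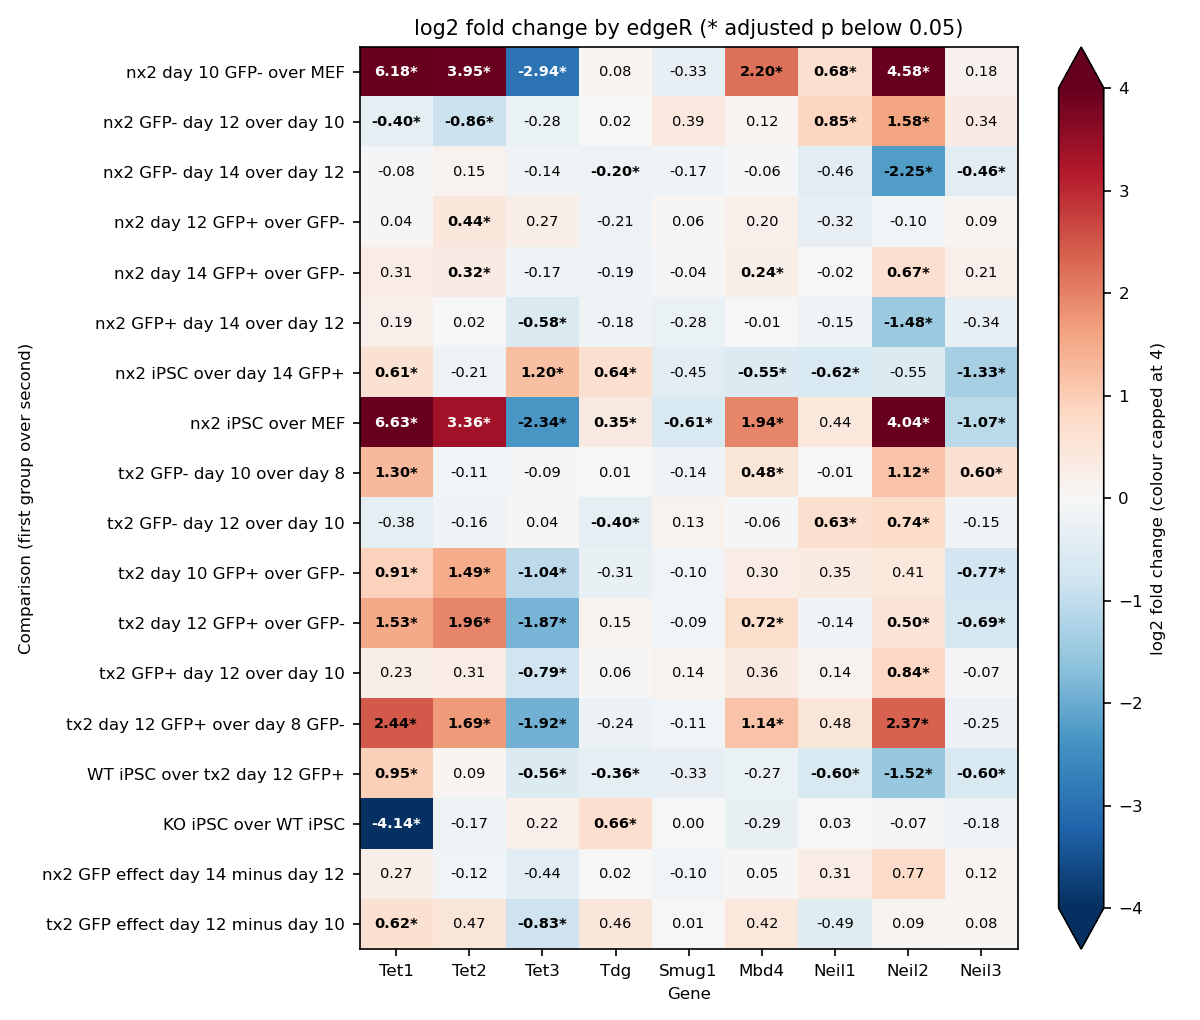
log2 fold changes of the 9 members (columns) in 16 comparisons of groups and 2 comparisons of GFP differences (rows), first-named group over the second, with an asterisk at an adjusted p under 0.05. Neil2 rose in nx2 GFP- cells at day 12 (1.58) and fell at day 14 (-2.25), and the TET genes were called together in both tx2 GFP comparisons.

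Counted over the 9 members, 5 rose and 1 fell in nx2 day 10 GFP- cells over MEF, where 76.4% of all genes were called, 38.8% higher and 37.6% lower. In nx2 iPSC over MEF 5 rose and 3 fell, beside 77.3% of all genes called, 37.9% higher and 39.4% lower. In nx2 GFP- cells at day 12 over day 10, 2 rose and 2 fell, beside 20.2% of all genes called, 10.1% higher and 10.1% lower. At day 14 over day 12 there, 3 fell and none rose, beside 36.8% of all genes called, 20.6% higher and 16.2% lower. In nx2 GFP+ cells at day 14 over day 12, 2 fell, beside 30.5% of all genes called, 14.5% higher and 16% lower. In nx2 GFP+ over GFP- cells 1 rose at day 12, beside 16.6% of all genes called, 9.93% higher and 6.69% lower. By the same gate 3 rose at day 14, beside 31.3% of all genes called, 14.4% higher and 16.9% lower. In nx2 iPSC over day 14 GFP+ cells 3 rose and 3 fell, beside 46.8% of all genes called, 24.3% higher and 22.5% lower. In tx2 GFP+ over GFP- cells 2 rose and 2 fell at day 10, beside 22.4% of all genes called, 13% higher and 9.36% lower. At day 12 by that gate 4 rose and 2 fell, beside 61.6% of all genes called, 31.2% higher and 30.4% lower. In tx2 GFP- cells 4 rose at day 10 over day 8, beside 20.7% of all genes called, 10% higher and 10.7% lower. At day 12 over day 10 there, 2 rose and 1 fell, beside 28.1% of all genes called, 16.1% higher and 12% lower. In tx2 GFP+ cells 1 rose and 1 fell at day 12 over day 10, beside 25.1% of all genes called, 12.2% higher and 12.9% lower. Day 12 GFP+ over day 8 GFP- cells of tx2 had 4 higher and 1 lower, beside 60.6% of all genes called, 30.8% higher and 29.8% lower. Wild-type iPSC over tx2 day 12 GFP+ cells had 1 higher and 5 lower, beside 51.1% of all genes called, 25% higher and 26% lower.

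In the Tet1 knockout, the targeted gene had 54.4, 58.6 and 57.3 CPM in knockout iPSC and 1303, 823 and 874 CPM in wild-type iPSC. The knockout mean was 5.68% of the wild-type mean, or 6.69% without wild-type replicate 1. The counts cover the whole gene span, so reads from parts left in the mutant allele cannot be told apart from others.

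Tdg was higher in the knockout clones. It had 56.7, 49.4 and 48.3 CPM in knockout iPSC and 31.6, 35.0 and 31.3 CPM in wild-type iPSC, a log2 fold change of 0.66 ± 0.13 or 1.58-fold (adjusted p = 0.00258). With each of the 6 libraries left out the value was 0.58 to 0.72 (adjusted p up to 0.0198). Of the 7 group means of Tdg in the second table, wild-type iPSC had the lowest, 32.6 CPM, and knockout iPSC the highest, 51.45 CPM. The knockout libraries overlapped those of tx2 day 10 GFP- cells, with a mean of 49.7 CPM. Tdg was the only member to rise in the knockout, and Tet1 the only one to fall. Of all genes 10.7% were called there, 4.78% higher and 5.87% lower. On library totals alone the split was 760 higher and 598 lower, beside 727 higher and 892 lower on TMM-scaled totals. The share rests on the libraries: 1619 genes were called with all 6 and 832 to 2581 with each left out in turn.

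**Figure D5:**
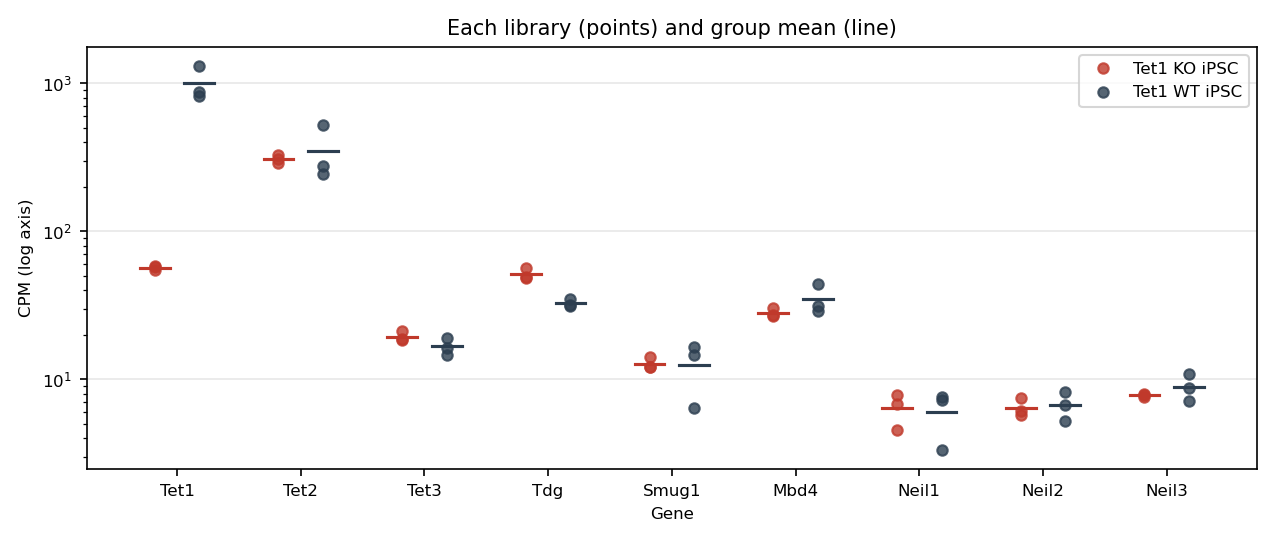
CPM of the 9 members on a log axis in Tet1 knockout iPSC (left of each pair) and wild-type iPSC (right), with points for clones and lines for means. The knockout clones sit at 54.4 to 58.6 CPM for Tet1 and above all wild-type clones for Tdg, at 48.3 to 56.7 CPM.

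The other members were not called in the knockout. Tet2, with 308, 325 and 288 CPM in knockout iPSC, overlapped wild-type iPSC, where replicate 1 stood apart at 522 CPM. Tet3 had a log2 fold change of 0.22 ± 0.12 (adjusted p = 0.272) and Mbd4 of -0.29 ± 0.15 (adjusted p = 0.217). Wild-type replicate 1 also stood apart for Smug1, with 6.40 CPM against 14.5 and 16.5 CPM in the other clones, and for Mbd4, with 44.0 CPM against 28.8 and 31 CPM. Per kilobase, Tet2 took 79.0 ± 0.863% of the TET sum in knockout iPSC and 23.2 ± 3.05% in wild-type iPSC, and the sum was 23 ± 1.23 CPM per kilobase in knockout iPSC and 86.2 ± 26 in wild-type iPSC. In the wild-type clones other than replicate 1 the Tet2 share was 20.9 and 22% and the sum 68.8 and 73.8 CPM per kilobase.

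Partners of the pathway were counted in 6 lists, beside the 77.3% of all genes called in nx2 iPSC over MEF, 37.9% higher and 39.4% lower. Of 10 genes of dividing cells 8 rose and none fell there, and their part in these counts was not tested. In nx2 iPSC over MEF, all 5 genes of maintenance and de novo methylation rose, among them Dnmt3b (5.64 ± 0.12), which sets new methylation, and Uhrf1 (2.08 ± 0.08), which guides its maintenance. Of the 12 genes of the repair steps after base removal 8 rose and 3 fell, with Parp1 at 835 ± 75.3 CPM in iPSC and 157 ± 4.23 CPM in MEF and Lig1, a DNA ligase, at 308 ± 38.2 and 72.4 ± 3.73 CPM. Of the other 5 glycosylases 3 rose and none fell, led by Ung, the main uracil glycosylase (3.12 ± 0.09). Of 13 TET cofactors and regulators 7 rose and 3 fell. Of the 3 cytosine deaminases 2 rose and none fell, and of the 4 readers of oxidised methylcytosine 2 rose, with Hmces at 2.61 ± 0.11, and Uhrf2 fell (-1.32 ± 0.09). The list medians were 2.08 for methylation, 0.81 for repair, 0.60 for the other glycosylases and for the TET cofactors, 2.78 for deaminases and 1.37 for readers, beside 0.02 over all genes.

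In tx2 day 12 GFP+ over GFP- cells the lists were counted beside 61.6% of all genes called, 31.2% higher and 30.4% lower. Of 10 genes of dividing cells 9 rose and none fell there, with a list median of 0.64, and their part in these counts was not tested. Pcna, Fen1 and Lig1 of the repair list also act in DNA replication. Of 12 repair genes 9 rose and none fell, with a list median of 0.52 beside 0.05 over all genes. Of the other glycosylases 3 of 5 rose, including Ung (1.31 ± 0.15) and Mutyh (1.39 ± 0.18), and Mpg fell (-0.51 ± 0.21). Of the methylation genes 4 of 5 rose, with Dnmt3l, the cofactor of the de novo enzymes, at 104 ± 24.1 CPM in GFP+ cells and 1.85 ± 0.357 CPM in GFP- cells, while Dnmt3a fell (-1.23 ± 0.10). Of the TET cofactors and regulators 6 rose and 4 fell, with a list median of -0.02, Prdm14 up (4.45 ± 0.21) and Cxxc4, which binds Tet2 protein, down (-1.87 ± 0.19). Of 3 deaminases 2 rose and 1 fell, and of 4 readers 3 rose and 1 fell.

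In the knockout, 3 of 5 methylation genes rose over wild type and none fell, beside 10.7% of all genes called, 4.78% higher and 5.87% lower. Dnmt3l had 416 ± 23.6 CPM in knockout iPSC and 236 ± 45.8 CPM in wild-type iPSC (0.81 ± 0.18, adjusted p = 0.00547), Dnmt3b 482 ± 5.71 and 314 ± 23.2 CPM (adjusted p = 0.00654) and Dnmt3a 285 ± 11.9 and 221 ± 20.9 CPM (adjusted p = 0.018). Without wild-type replicate 1 these 3 were called too, at 0.67 for Dnmt3l, 0.60 for Dnmt3b and 0.33 for Dnmt3a (adjusted p = 0.0197, 0.0167 and 0.0302). Of 13 TET cofactors and regulators Dppa3 rose (1.32 ± 0.26, adjusted p = 0.00319) and Idh2 fell (-0.39 ± 0.09, adjusted p = 0.0101). Of 12 repair genes Lig1 and Parp2 fell (adjusted p = 0.0107 and 0.0378), and none of the other glycosylases, deaminases or readers was called. Without wild-type replicate 1 Dppa3, Idh2 and Lig1 were called too (adjusted p = 0.00169, 0.00492 and 0.031), Parp2 was not (-0.18, adjusted p = 0.154), and Qser1, a TET cofactor list member, was (0.84, adjusted p = 4.36e-05, against 0.31 and 0.385 with all libraries). The medians were 0.36 for methylation, 0.07 for the TET cofactors and 0.08 for repair, beside -0.04 over all genes.

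The genes whose log2 levels followed each member most closely were picked by the lower of the correlations in the tables, over 21 libraries of the first and the 18 of the second without the knockout. Libraries of a table share their lines and fall into separate stages, so these values describe and carry no test. Tet1 was most like Jarid2 (r = 0.98 and 0.99), Phc1, Tuba4a and Arid3b, and Tet2 most like Sod2 (0.97 and 0.99), Wtap, Stmn3 and Dsg2. Tet3 was most like Stox2 (0.98 and 0.98), Fam171a1, Nbea and Tenm3. Neil3 was most like Clk3 (0.91 and 0.89) and Tdg most like Slc38a1 (0.79 and 0.71). Among the members themselves, r between Tet1 and Tet2 was 0.98 in the first table and 0.87 in the second, between Mbd4 and Tet3 -0.97 and -0.79, and between Neil3 and Tet3 -0.27 and 0.81.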

How the data were processed

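Per the labels, poly(A) RNA was made into stranded libraries. The authors deposited raw counts per gene name, made with featureCounts 1.5.3 over whole gene spans; per the file headers the strand setting was 2, the reverse strand. Alignment to mm10 by HISAT2 2.1.0 and the authors' use of DESeq2 1.18.1 come from the submitters' processing notes. Members and gene lists were chosen with earlier results of these data known.

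Genes were filtered with filterByExpr (16132 and 15197 kept), scaled by TMM and tested within a table with edgeR 4.0.16 quasi-likelihood F tests in R 4.3.3, over all 7 groups of the table, with Benjamini-Hochberg adjustment at 0.05. Log2 levels used a prior count of 2. Scripts were tested on simulated data. Named genes were the 9 members, up to 4 called genes of a list with the smallest p, and the genes of closest pattern. Exon lengths came from GENCODE M21. Counts limit the precision of low genes: 3 counts were 0.176 CPM in the first MEF library. The p-values measure the spread between lines or clones.

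Same-numbered libraries are 1 line within nx2 and within tx2, so they are paired. Their deviations from group means correlated at -0.121 to 0.359 in nx2 and 0.126 to 0.593 in tx2. The clone numbers of the knockout and wild-type iPSC do not pair (-0.0909 to 0.0163). The main fit used group means only and left the pairing of lines out. For tx2 GFP- day 12 over day 10 it called 2441 genes higher and 1822 lower. With the replicate block these were 3072 higher and 2206 lower. Alternatives were RLE factors, library totals, other filters, only the groups of a contrast, DESeq2 1.42.0, a replicate block, dropping each library in turn, and dropping both libraries over 8% mitochondrial counts; applying the last to the gene lists was chosen after seeing the data. Figures used matplotlib 3.10.9.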

Additional observations from a re-analysis of the deposited data

Results flagged for a closer look

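The GFP difference in tx2 changed between days 10 and 12 for Tet3 (-0.829 on the log2 scale, day 12 minus day 10, adjusted p = 0.00122) and for Tet1 (0.618, adjusted p = 0.0439), by edgeR's test of the difference itself. The Tet1 call was lost in 9 of the 12 fits that leave out a library.

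The line ratios of Neil2 with the GFP gate at day 12 were of opposite sign in the systems, though no difference was called in nx2. The flag asked only for the signs of these ratios, with no limit on size or p. In nx2 all 3 lines had less in GFP+ than in GFP- cells, with log2 ratios of -0.09, -0.06 and -0.16, and a fitted fold change of -0.105 that was not called (adjusted p = 0.805). In tx2 all 3 lines had more in GFP+ cells, with ratios of 0.27, 0.66 and 0.68, and a fitted fold change of 0.502 (adjusted p = 0.0469), a call lost in 4 of the 6 fits that leave out a library, on library totals alone (adjusted p = 0.098) and with no low-count filter (0.0962). The difference between the systems was not tested, since the tables were scaled separately.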

How the results depend on the processing

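Of 162 member results, 146 kept direction and side of the threshold on library totals alone, 143 with only the groups of the contrast, 154 with no low-count filter, 156 by DESeq2, 159 with RLE factors, 162 at 1 CPM in 3 libraries, 158 with the replicate block and 146 without both libraries over 8% mitochondrial counts. The last of these lost 2 calls, gained 13 and reversed 1; it gained Tet2 (0.46, adjusted p = 0.00959) and Tdg (0.45, 0.0468) for the tx2 change in GFP difference. Of 1080 results with 1 library left out, 63 lost and 15 gained a call. The block gained 4 calls (Smug1, Tet1, Mbd4 and Tdg, given above) and lost none. For the clone numbers, which do not pair, it left Tdg in the knockout at 0.65 (adjusted p = 0.00149). Tet2 in wild-type iPSC over tx2 day 12 GFP+ cells reversed to -0.321 (adjusted p = 0.0121) without wild-type replicate 1, also the fit without both libraries of high mitochondrial share, and ranged up to 0.299 with other libraries left out.

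Member counts moved as follows. With only the groups of the contrast they were 2 for nx2 GFP- day 12 over day 10, 3 for nx2 day 12 GFP+ over GFP-, 4 for nx2 and for tx2 GFP+ later over earlier day, 4 for the tx2 change in GFP difference and 1 for that of nx2. On library totals they were 1 for nx2 GFP- day 14 over day 12 and 2 for nx2 day 12 GFP+ over GFP-, which DESeq2 and the fit without both libraries also put at 2. That fit gave 4 for tx2 GFP+ day 12 over day 10 and for the tx2 change in GFP difference. No filter gave 1 for nx2 day 14 GFP+ over GFP- and 1 for the tx2 change. Leaving out 1 library gave 1 to 3 (nx2 GFP- day 14 over day 12), 1 to 2 (nx2 day 12 GFP+ over GFP-), 0 to 3 (day 14), 0 to 2 (tx2 GFP- day 12 over day 10), 1 to 2 (tx2 GFP+ day 12 over day 10) and 1 to 3 (tx2 change).

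Counts of all genes called were 1440 (nx2 GFP- day 12 over day 10), 5171 (wild-type iPSC over tx2 day 12 GFP+), 448 (knockout over wild type) and 928 (nx2 change in GFP difference) when just the groups compared were fitted, and 415 by DESeq2 and 396 without both libraries for that change. With 1 library left out they were 2043 to 3169 (nx2 GFP- day 12 over day 10), 1629 to 3455 (tx2 GFP- day 10 over day 8), 2630 to 4486 (tx2 GFP- day 12 over day 10), 2107 to 3946 (tx2 GFP+ day 12 over day 10), 832 to 2581 (knockout over wild type) and 117 to 171 (nx2 change). The causes were not tested.

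Library totals alone moved the median of all genes by 0.28 in nx2 day 10 over MEF, 0.29 in nx2 iPSC over MEF and -0.13 in wild-type iPSC over tx2 day 12 GFP+. The share of calls that were higher moved by over 10 points on totals in nx2 GFP- day 12 over day 10 (63.8% and 50.2%), nx2 iPSC over MEF (59.1% and 49.0%), tx2 GFP- day 10 over day 8 (59.0% and 48.3%) wild-type iPSC over tx2 day 12 GFP+ (37.4% and 49.0%) and knockout over wild type (56.0% and 44.9%), and with only the groups in the tx2 change (49.9% and 38.7%). Low members such as Neil2 in MEF rest on few counts, which limits their fold changes.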
